A study of Mus musculus with 45 samples.

Results

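The 9 genes described here encode the receptor chains for interleukin-4 (IL-4) and interferon-γ (IFN-γ) and the Janus kinases (JAKs) bound to them: Il4ra, Il13ra1, Il2rg, Ifngr1, Ifngr2, Jak1, Jak2, Jak3 and Tyk2. They were taken by name for their place in the 2 pathways, not for their values, and all 9 were found among the 24421 genes of the deposited table. The cells were primary macrophages grown from C57BL/6 mouse bone marrow, on day 7 of differentiation, in medium conditioned by L929 fibroblasts, a usual source of the growth factor M-CSF. IL-4 (10 ng/ml) was given for 2 h or 4 h, IFN-γ (100 ng/ml) for 2 h or 4 h, and both cytokines at these doses for 2 h or 4 h. Untreated cells of the same kind were the controls. Each of the 7 groups had 3 poly(A) RNA libraries, 21 in all, and no genetic change is labelled in any of them. Separate mice or cultures behind the replicates are not stated in the labels, so p-values measure the spread between these libraries, which may be technical. Another 24 libraries of the series, from cells with short hairpin RNAs, were not analysed here.

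IL-4 binds IL-4Rα (Il4ra), which then recruits a second chain. With the common γ chain (Il2rg) it forms the type I receptor, which signals through JAK1 and JAK3, and with IL-13Rα1 (Il13ra1) the type II receptor, which also answers to IL-13 and signals through JAK1 and TYK2. Both phosphorylate STAT6, the factor behind alternative macrophage activation. IFN-γ binds IFNGR1, which carries JAK1, and IFNGR2, which carries JAK2, and the complex starts the classical activation of macrophages. Macrophages are known to carry both IL-4 receptor types.

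Libraries held 28920801 to 80028327 reads, as recovered from the values. Untreated replicates 2 and 3 stood apart: the ribosomal RNA precursor Rn45s took at most 3.21% of the reads of any treated library, against 0.151%, 43.2% and 15.7% in untreated replicates 1, 2 and 3. CPM values (reads scaled to a common library total) were therefore divided by a median-ratio factor for each library, and all levels below are such rescaled CPM unless stated. On the deposited scale the median gene was shifted against untreated cells by 0.39 (IL-4, 2 h), 0.43 (IL-4, 4 h), 0.27 (IFN-γ, 2 h), 0.10 (IFN-γ, 4 h), 0.29 (both, 2 h) and 0.19 (both, 4 h) on the log2 scale, so changes are given relative to that shift. Treated groups were also shifted against each other on that scale, so comparisons among them depend on the rescaling too. The shift was 0.33 for IL-4 against IFN-γ and -0.27 for both against IL-4, each at 4 h. It was -0.17 for IFN-γ at 4 h against 2 h, and -0.0023 for both against IFN-γ at 2 h. All 10 macrophage markers found in the table were expressed, with a mean of 4132 to 4749.7 CPM for Csf1r, the M-CSF receptor. NK-cell markers did not reach 1 CPM in any library, and the T-cell marker Cd3e averaged at most 0.025 CPM in any group. Of the same T-cell list, Cd28 averaged 278 CPM in untreated cells and Lck 12.8 CPM after both for 4 h. All 6 granulocyte markers in the table reached 1 CPM in some library, as did 5 of 6 dendritic and 5 of 7 stroma markers. Of 7 mast-cell, basophil and eosinophil markers, 2 did. These summed lists reached at most 155, 11.0, 21.5 and 1.94 CPM in that order. Which cells these transcripts came from was not tested.

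Il4ra and Jak2 rose under all 6 treatments. Il13ra1, Il2rg, Jak3 and Tyk2 rose under IFN-γ at 4 h and were lower under IL-4 than under IFN-γ at that time, and Il13ra1 fell under IL-4 at 4 h. Of the IFN-γ receptor chains, Ifngr1 fell under both cytokines at 4 h and Ifngr2 fell under IFN-γ at 2 h, while Jak1 was called in no comparison of all 21 libraries without a replicate block. A gene is called changed where limma's adjusted p, over the 11380 genes tested, is under 0.05. Against untreated cells, 2 of 9 genes were called after IL-4 for 2 h (8.62% of all tested genes were called), 3 after IL-4 for 4 h (22.1%), 5 after IFN-γ for 2 h (17.9%), 6 after IFN-γ for 4 h (39.2%), 3 after both for 2 h (22.2%) and 6 after both for 4 h (42.6%). The median log2 change of the 9 was 0.02, -0.07, 0.55, 1.27, 0.22 and 0.46 in that order, while that of all tested genes lay between -0.0061 and 0.00061. Libraries with the same replicate number deviated together. With that number added to the fit as a block, 4, 5, 8, 8, 7 and 9 of the 9 were called in the same order of groups, as were 25.5%, 47.5%, 38.1%, 63.3%, 43.4% and 66.7% of all tested genes. That fit and the one without it use all 21 libraries on the rescaled values, unless another setting is named. No call for the 9 genes made without the block was lost with it.

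**Figure D1:**
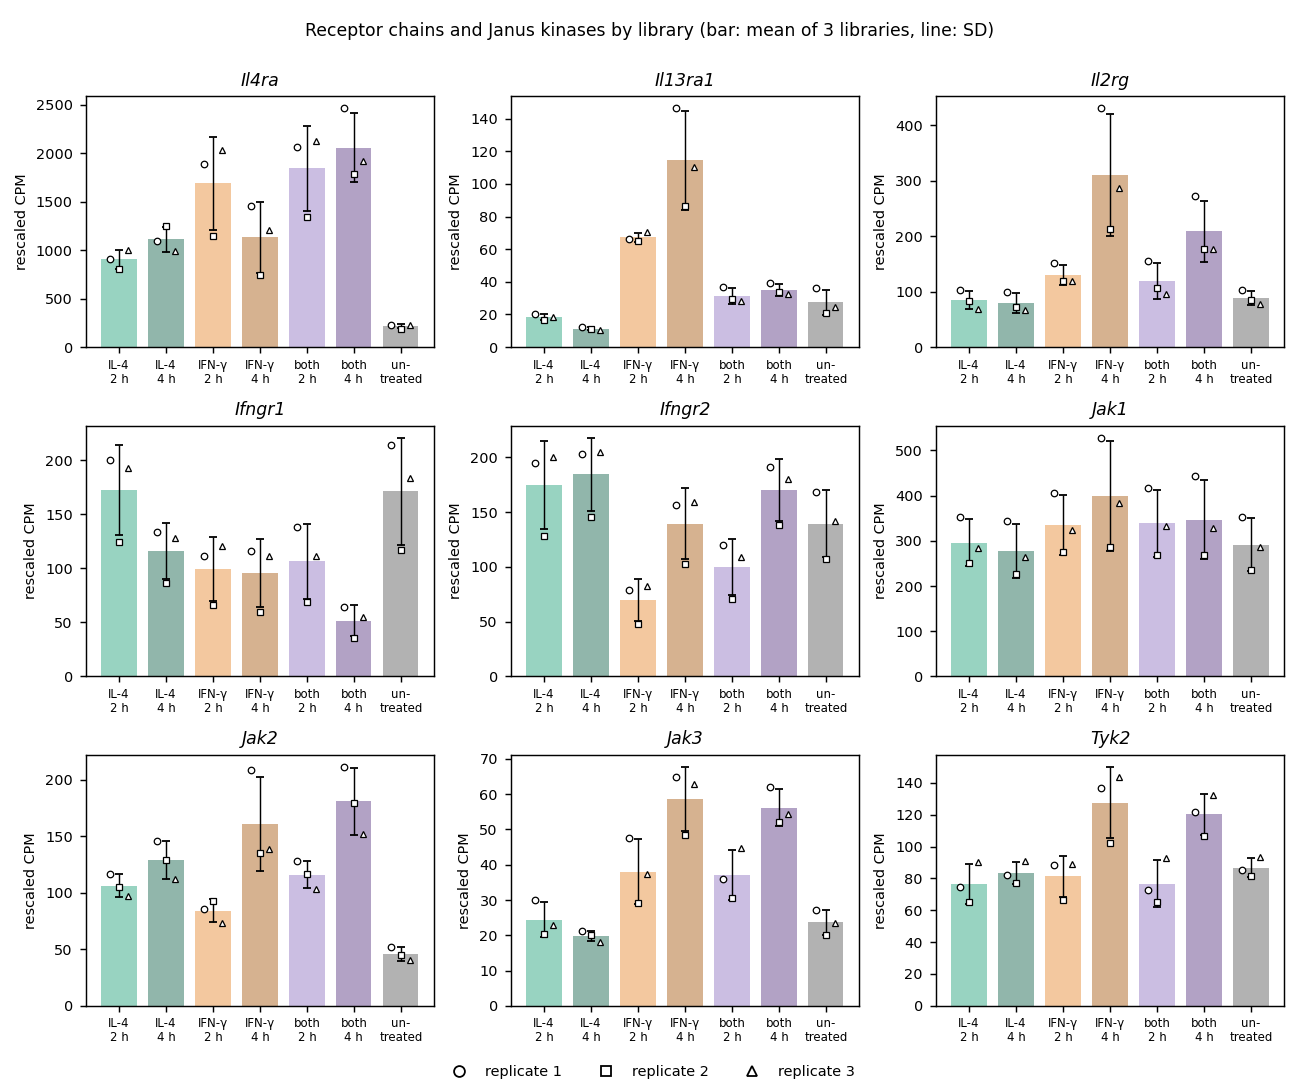
Rescaled CPM of the 9 genes in each of the 21 libraries. Bars are means of 3 libraries, lines are SDs, symbols are replicates, groups run from IL-4 on the left to untreated on the right, and each vertical axis starts at 0. Il4ra stands between 739 and 2463 CPM in treated libraries and at or below 232 CPM in untreated ones.

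**Figure D2:**
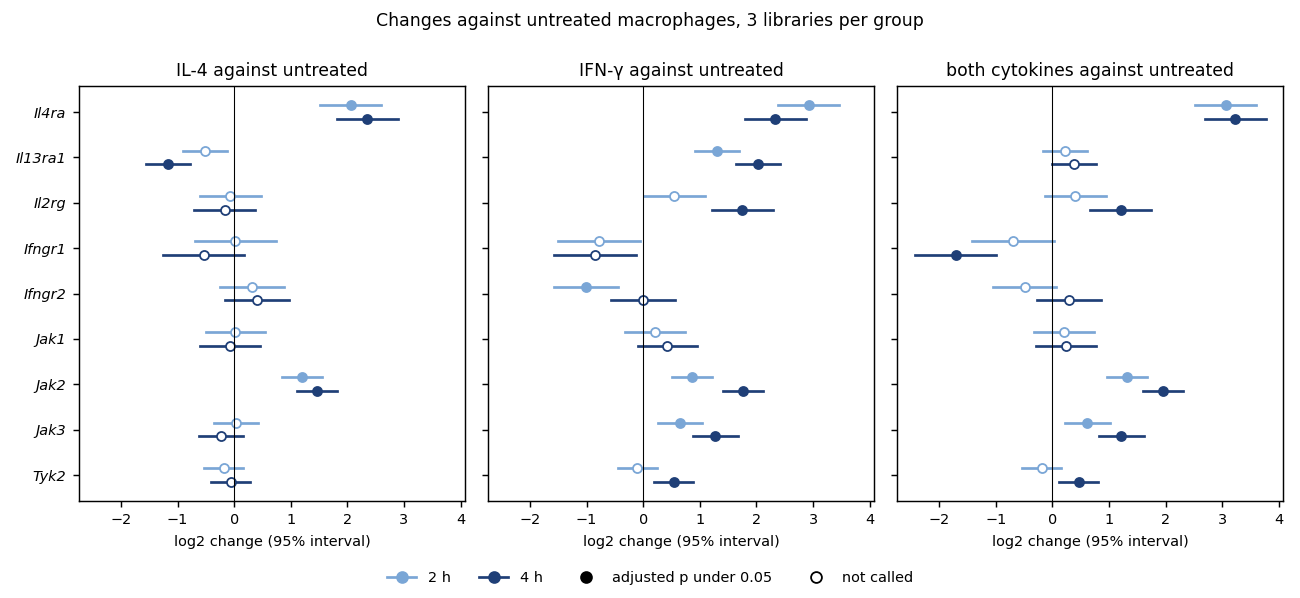
Log2 change of each gene against untreated cells, with 95% intervals, for IL-4, IFN-γ and both cytokines at 2 h (light) and 4 h (dark). Filled points have an adjusted p under 0.05; Il4ra and Jak2 are filled in all 6 comparisons and Jak1 in none.

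Per kilobase of exon, the untreated macrophages held most Ifngr1 (60.2 ± 17.4 CPM per kb, SD, n = 3), followed by Jak1 (40.4), Il2rg (37.1), Ifngr2 (37.0) and Il4ra (36.1), whose ranges over libraries overlapped from one to the next. Tyk2 (12.6), Jak2 (9.13), Il13ra1 (7.37) and Jak3 (4.42 CPM per kb) came below them, and the ranges of Jak2 and Il13ra1 overlapped. Il4ra had the highest mean in each treated group, at 151 to 343 CPM per kb, although its range overlapped that of Il2rg after IFN-γ for 4 h. After both cytokines for 4 h, Ifngr1 stood sixth, at 18.1 ± 5.02 CPM per kb, with a range that overlapped that of Tyk2 (17.5 ± 1.86 CPM per kb).

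Il4ra (chromosome 7, 125552120 to 125579474, plus strand; GENCODE, GRCm38) encodes the chain that both IL-4 receptor types share. It had 907, 803 and 1003 CPM after IL-4 for 2 h, against 229, 189 and 232 CPM in untreated cells. After IL-4 for 4 h it had 1096, 1247 and 987 CPM. No treated library came near the untreated range. IFN-γ alone gave 1886, 1146 and 2036 CPM at 2 h and 1453, 739 and 1204 CPM at 4 h. Both cytokines gave 2065, 1342 and 2129.8 CPM at 2 h and 2463, 1790.1 and 1917 CPM at 4 h. The transcript rose under IL-4 and also under IFN-γ, which its protein does not bind. The log2 changes against untreated cells were 2.06 and 2.35 (IL-4, 2 h and 4 h), 2.92 and 2.33 (IFN-γ) and 3.06 and 3.23 (both), each with an SE of 0.25, and the highest adjusted p was 3.29e-05. In bulk RNA, more cells expressing a gene and more RNA per cell cannot be told apart.

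Il4ra was lower after IL-4 than after IFN-γ at 2 h (log2 change -0.86, SE 0.25, adjusted p = 0.0217), and at 4 h the difference was 0.02 with a 95% interval that crossed 0. At 2 h the call was lost on the deposited scale (adjusted p = 0.0903), without IL-4 replicate 1 or 2, or without IFN-γ replicate 1 or 3 (adjusted p = 0.0571 to 0.108). Both cytokines gave more Il4ra than IL-4 alone at 2 h (1.00, adjusted p = 0.0113) and 4 h (0.88, 0.0133). They gave more than IFN-γ alone at 4 h (0.90, adjusted p = 0.0254), with a difference of 0.14 (adjusted p = 1.00) at 2 h. The call against IL-4 at 2 h was lost without replicate 1 or 3 of the both group (0.0538 and 0.0532). At 4 h it was lost without IL-4 replicate 3 (0.0557), without replicate 1 of the both group (0.0645) and on the deposited scale (0.0986). The call against IFN-γ at 4 h was lost without IFN-γ replicate 2 (0.113) or replicate 1 or 3 of the both group (0.111 and 0.054). Each of these calls for both cytokines was also lost without replicate 1 or 3 in all groups (0.169 to 0.226).

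The change under both cytokines was set against the sum of the changes under each alone. That sum was taken on the log2 scale, where it stands for a product of fold changes. Over the 9 genes the difference ran from -1.92 (Il4ra) to 0.20 (Ifngr2) at 2 h, and from -1.45 (Il4ra) to 0.18 (Jak3) at 4 h. For Il4ra the shortfall at 2 h was -1.92 (SE 0.36, adjusted p = 0.0263), and Il4ra was the 1 gene of the 9 called in that comparison, in which 0.369% of all tested genes were called. It was lost without filtering low genes (adjusted p = 0.0542), without untreated replicate 2 or 3 (0.0662 and 0.0585), without either replicate 1 or replicate 3 of the IL-4 or of the IFN-γ group, or without replicate 2 of the both group (0.0728 to 0.0874), and without untreated replicates 2 and 3 together (0.251). At 4 h it was -1.45 (adjusted p = 0.051), and the call was made with the replicate block (0.000843), on the deposited scale (0.0206) and by edgeR on recovered reads (0.0479). Jak2 was the 1 gene called at 4 h (-1.28, SE 0.24, adjusted p = 0.00747; 1.7% of all tested genes called); each single library could be left out without loss of the call, but it was lost without replicate 1, 2 or 3 in all groups (0.0537, 0.0507 and 0.223) and without untreated replicates 2 and 3 together (0.135). With the block Jak2 was also called at 2 h (-0.74, adjusted p = 0.00285), where the fit without it gave 0.441, so that 2 of the 9 were called at each time (3.01% and 14.8% of all tested genes).

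The promoters of Il4ra and Jak2 are shown because these genes rose under all 6 treatments, and that of Ifngr2 because it alone among the 9 held a searched motif. Each runs from 250 bases before to 50 after the RefSeq start site in GRCm38.p6, on the gene's own strand; the windows are chr7:125552021-125552320 (plus), chr19:29251553-29251852 (plus) and chr16:91546809-91547108 (plus). Capitals mark a motif match.
Il4ra: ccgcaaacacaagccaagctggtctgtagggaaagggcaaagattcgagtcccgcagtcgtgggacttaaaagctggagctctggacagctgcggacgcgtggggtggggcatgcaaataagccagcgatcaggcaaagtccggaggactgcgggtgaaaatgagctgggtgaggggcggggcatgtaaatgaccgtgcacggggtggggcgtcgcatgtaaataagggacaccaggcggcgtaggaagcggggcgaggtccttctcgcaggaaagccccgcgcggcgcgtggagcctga
Jak2: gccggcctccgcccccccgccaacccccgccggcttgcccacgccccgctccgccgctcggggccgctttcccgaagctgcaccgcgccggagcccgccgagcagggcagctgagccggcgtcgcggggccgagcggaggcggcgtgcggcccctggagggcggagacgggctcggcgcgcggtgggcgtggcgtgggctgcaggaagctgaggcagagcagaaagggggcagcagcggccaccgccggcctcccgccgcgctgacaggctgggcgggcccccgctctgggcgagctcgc
Ifngr2: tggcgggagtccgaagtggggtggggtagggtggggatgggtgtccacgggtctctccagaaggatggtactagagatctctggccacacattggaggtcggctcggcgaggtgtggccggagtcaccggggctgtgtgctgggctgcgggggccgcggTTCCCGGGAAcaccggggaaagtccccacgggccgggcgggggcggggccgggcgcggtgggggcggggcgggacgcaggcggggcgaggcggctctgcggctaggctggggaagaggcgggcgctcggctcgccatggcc
The motifs were TTCNNNGAA and TTCNNNNGAA, the STAT-type palindromes with 3 and 4 bases between the arms, and GAAANNGAAA, the repeat of interferon response elements, all read on both strands. They occur in 8.30%, 6.95% and 3.44% of 32851 mouse promoter windows of the same length. All 9 genes had a window, and the 1 match was TTCCCGGGAA in Ifngr2, whose first base lies at -91 from the start site. A match is a description of letters, and its absence from a window says nothing about binding elsewhere.

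Il13ra1 (chromosome X, 36112110 to 36171259, plus strand), the second chain of the type II receptor, moved in opposite directions under the 2 cytokines. IFN-γ gave 66.1, 65.1 and 70.6 CPM at 2 h and 146, 86.3 and 111 CPM at 4 h, against 36.0, 21.2 and 24.8 CPM in untreated cells. IL-4 gave 20.6, 16.7 and 18.2 CPM at 2 h and 12.2, 11.4 and 10.4 CPM at 4 h. The IFN-γ libraries stood above the untreated ones, and the IL-4 libraries below them. Il13ra1 rose after IFN-γ by log2 changes of 1.30 at 2 h (adjusted p = 6.53e-05) and 2.03 at 4 h (2.23e-07). After IL-4 it fell at 4 h (-1.17, adjusted p = 0.000177). At 2 h the change was -0.51 (adjusted p = 0.113; 0.00458 with the block; 0.783 on the deposited scale, where it was -0.10). The SE was 0.18 throughout. Between IL-4 and IFN-γ directly, the log2 change was -1.81 at 2 h and -3.20 at 4 h (adjusted p = 1.64e-06 and 8.27e-10).

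With both cytokines, Il13ra1 stood between its levels under each alone, at 31.5 ± 4.83 CPM at 2 h and 35.2 ± 3.66 CPM at 4 h (SD, n = 3 each), against 27.3 ± 7.72 CPM in untreated cells. Against IFN-γ alone it was lower at both times, by -1.08 (adjusted p = 0.00211) and -1.64 (1.19e-05). Against IL-4 alone it was higher, by 0.73 (adjusted p = 0.0114) and 1.55 (6.12e-06). The 2 h call against IL-4 was lost without replicate 1 of the both group (0.0671) and on the deposited scale (0.16). Without replicate 3 in all groups, the 2 h calls against IFN-γ and against IL-4 were lost (0.384 and 0.185). Against untreated cells the 4 h change was 0.38 (adjusted p = 0.106; 0.0102 with the block), and it was -0.04 without untreated replicates 2 and 3.

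Across these comparisons of the 3 treatments, both cytokines against IFN-γ alone gave 1 called gene of the 9 at 2 h (3.01% of all tested genes called) and 2 at 4 h (11.9%), which were Il13ra1 at both times and Il4ra at 4 h. With the block, 3 and 6 of the 9 were called (10.4% and 32.6%). Both cytokines against IL-4 alone gave 3 at 2 h (14.8%) and 7 at 4 h (30.9%); 7 and 8 were called with the block (33.2% and 56%). The 2 h calls were Il4ra, Il13ra1 and Jak3 (0.58, adjusted p = 0.0424, lost without IL-4 replicate 2 or 3 or replicate 1 or 3 of the both group, 0.0927 to 0.185). The Jak3 call was also lost without replicate 1 or 3 in all groups (0.0594 and 0.616). At 4 h Il4ra, Il13ra1, Il2rg (1.37), Jak2, Jak3 (1.46) and Tyk2 (0.52) were higher and Ifngr1 was lower. The Tyk2 call was lost without IL-4 replicate 1 or 2 or replicate 1 or 3 of the both group (0.0588 to 0.085). Of these 10 calls, 5 were made on the deposited scale, 1 at 2 h and 4 at 4 h. IL-4 against IFN-γ gave 4 at 2 h (19.4%) and 4 at 4 h (42%), with 8 at each time under the block (39.1% and 63.3%). At 2 h Il4ra, Il13ra1 and Jak3 were lower after IL-4 and Ifngr2 was higher; the Jak3 change (-0.61, adjusted p = 0.0262) was lost without IL-4 replicate 2 or 3 or IFN-γ replicate 1 or 3 (0.0683 to 0.147) and on the deposited scale (0.229). At 4 h Il13ra1, Il2rg (-1.91), Jak3 (-1.51) and Tyk2 (-0.59, adjusted p = 0.00712) were lower after IL-4. On the deposited scale the Tyk2 difference was -0.23 and was not called (adjusted p = 0.375), while Ifngr2 was called higher after IL-4 (0.77, adjusted p = 0.0419).

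The block added calls among these comparisons, given here with the adjusted p with the block and then without it. For Ifngr1, the level was higher after IL-4 than after IFN-γ (0.81 at 2 h, 3.28e-07 and 0.121; 0.31 at 4 h, 0.00251 and 0.51), and it was lower after both than after IL-4 at 2 h (-0.72, 2.13e-06 and 0.207). Ifngr2 was lower after both than after IL-4 at 2 h (-0.81, 2.27e-07 and 0.0515), and higher after both than after IFN-γ (0.52 at 2 h, 0.000109 and 0.648; 0.30 at 4 h, 0.00512 and 0.623). It was also higher after IL-4 than after IFN-γ at 4 h (0.41, 0.000115 and 0.24). The adjusted p-values of Il2rg at 2 h were 0.00316 and 0.288 for both against IL-4 (0.47) and 0.000251 and 0.112 for IL-4 against IFN-γ (-0.62). Jak2 was higher after both than after IFN-γ at 2 h (0.46, 0.00212 and 0.24). Jak1 was lower after IL-4 than after IFN-γ (-0.18 at 2 h, 0.0378 and 0.776; -0.50 at 4 h, 3.27e-06 and 0.125) and higher after both than after IL-4 (0.19 at 2 h, 0.0309 and 0.808; 0.31 at 4 h, 0.000648 and 0.398). It was lower after both than after IFN-γ at 4 h (-0.19, 0.032 and 0.785).

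Il2rg (chromosome X, 101264378 to 101268255, minus strand) encodes the common γ chain, shared with the receptors for IL-2, IL-7, IL-15 and IL-21. After IFN-γ for 4 h it had 430.2, 213 and 286 CPM, against 103, 84.7 and 78.0 CPM in untreated cells. Both cytokines for 4 h gave 272, 177 and 177 CPM. No library of either group overlapped the untreated range. The log2 changes were 1.75 after IFN-γ (adjusted p = 3.79e-05) and 1.21 after both (0.00102), with an SE of 0.25. Without untreated replicates 2 and 3 the change after both was 0.99 and was not called (adjusted p = 0.0656). At 2 h it had 130 ± 18.4 CPM after IFN-γ and 119 ± 31.6 CPM after both, changes of 0.55 and 0.40. The IFN-γ change had an adjusted p of 0.175, and it was called with the block (0.000792), on the deposited scale (0.0318) and without replicate 1 in all groups (0.0483). The change for both had 0.326 and was called with the block (0.00733). With untreated replicates 2 and 3 left out, the 2 h changes were 0.33 after IFN-γ and 0.18 after both. After IL-4 it had 84.8 ± 16.8 CPM at 2 h and 79.3 ± 17.9 CPM at 4 h, and the 95% intervals of the changes crossed 0. With both cytokines for 4 h, Il2rg was 0.54 lower on the log2 scale than with IFN-γ alone (adjusted p = 0.22; 0.0011 with the block).

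Il2rg and Jak3 are also transcribed in lymphocytes, and the marker lists of such cells were read beside them. Of 8 T-cell markers, Cd28 and Lck reached 1 CPM. The summed T-cell list ranged from 59.1 to 86.5 CPM after IFN-γ for 4 h and from 194 to 346 CPM in untreated cells. Lck averaged 11.0 CPM after IFN-γ for 4 h and 0.359 CPM in untreated cells. Of 6 B-cell markers, 1 (Cd79b) reached 1 CPM, Pax5 was at 0 in all libraries, and the summed list ranged from 4.46 to 5.49 CPM after IFN-γ for 4 h and from 3.53 to 4.23 CPM in untreated cells. The NK-cell list summed to at most 0.261 CPM in any library, with Klra4, Klra8 and Gzma at 0 in all. The granulocyte list, with all 6 genes found in the table above 1 CPM, ranged from 49.4 to 155 CPM after IFN-γ for 4 h and from 41.3 to 79.6 CPM in untreated cells, and its part in the result was not tested.

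On the rescaled values of all 21 libraries, neither IFN-γ receptor chain was called higher than in untreated cells without the replicate block. Ifngr1 (chromosome 10, 19591949 to 19610229, plus strand), the ligand-binding chain, had 64.0, 35.9 and 54.7 CPM after both cytokines for 4 h, against 214, 117 and 183 CPM in untreated cells. The groups did not overlap, and the fall was -1.71 on the log2 scale (SE 0.34, adjusted p = 0.000621). IFN-γ alone gave 112, 65.8 and 120.5 CPM at 2 h and 116, 59.4 and 111 CPM at 4 h. Those libraries overlapped the untreated range, and the changes of -0.78 and -0.85 were called with the block (adjusted p = 4.81e-07 and 7.67e-08) but not without it (0.14 and 0.0575). The 4 h change was also called with TMM factors (0.0459) and by edgeR (0.0456), and both changes were called without replicate 2 in all groups (0.0013 and 0.000457).

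Ifngr1 had 172 ± 41.7 CPM after IL-4 for 2 h and 116 ± 25.7 CPM after IL-4 for 4 h. The 4 h change was -0.54 (adjusted p = 0.303; 2.93e-05 with the block), but on the deposited scale it was -0.06. After both cytokines for 2 h Ifngr1 had 106 ± 34.9 CPM, a change of -0.69 (adjusted p = 0.18; 1.57e-06 with the block). At 4 h both cytokines gave less Ifngr1 than IL-4 alone (-1.17, adjusted p = 0.0144), a call lost without IL-4 replicate 1 or 3 or replicate 2 of the both group (0.0573, 0.0544 and 0.0749). That call was also lost without replicate 1 or 3 in all groups (0.0873 and 0.183). With the block and all libraries it was made (adjusted p = 2.1e-09). Against IFN-γ alone at 4 h the difference was -0.86 (adjusted p = 0.127; 3.02e-07 with the block).

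Ifngr2 (chromosome 16, 91547072 to 91565623, plus strand), the chain that carries JAK2, had 78.4, 47.8 and 82.4 CPM after IFN-γ for 2 h, against 168, 108 and 142 CPM in untreated cells. All 3 treated libraries lay below the untreated ones, and the fall was -1.01 on the log2 scale (SE 0.27, adjusted p = 0.0124). The call was lost without untreated replicate 1 (0.0631), without IFN-γ replicate 2 (0.0766) and on the deposited scale (0.121, with a change of -0.70). Leaving out replicate 1 or 3 in all groups also lost the call (0.144 and 0.142). With the block and all libraries the call was made (adjusted p = 9.7e-09). After IFN-γ for 4 h it had 156, 102 and 159.5 CPM, and the change was -0.0031 with a 95% interval of -0.57 to 0.56. The rise between the 2 times was 1.00 (adjusted p = 0.0147).

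Under IL-4, Ifngr2 had 174 ± 40.2 CPM at 2 h and 184 ± 33.4 CPM at 4 h, changes of 0.32 and 0.41 that were called with the block (adjusted p = 0.00413 and 0.000224) but not without it (0.677 and 0.321). On the deposited scale the 4 h change was 0.89 (adjusted p = 0.0261). Without untreated replicates 2 and 3 the IL-4 changes were 0.025 at 2 h and 0.12 at 4 h. Ifngr2 was higher after IL-4 than after IFN-γ at 2 h (1.33, adjusted p = 0.00147). With both cytokines it had 99.8 ± 25.9 CPM at 2 h and 169.8 ± 28.2 CPM at 4 h. The changes of -0.49 and 0.29 were called with the block (adjusted p = 3.57e-05 and 0.00223) but not without it (0.236 and 0.406). With untreated replicates 2 and 3 left out they were -0.78 and 0.00025. Without replicate 2 in all groups, and with no block, Ifngr2 was called higher after IL-4 (adjusted p = 0.0371 at 2 h and 0.0101 at 4 h) and after both for 4 h (0.0384), and lower after both for 2 h (0.00592).

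Jak2 (chromosome 19, 29251828 to 29313080, plus strand) encodes the kinase bound to IFNGR2. It had 117, 105 and 96.9 CPM after IL-4 for 2 h, against 52.4, 44.6 and 40.8 CPM in untreated cells. After IL-4 for 4 h it had 146, 129 and 112 CPM, and after IFN-γ it had 86.0, 93.2 and 73.5 CPM at 2 h and 209, 135 and 139 CPM at 4 h. Both cytokines gave 128, 117 and 104 CPM at 2 h and 211, 179.6 and 152 CPM at 4 h. All 18 treated libraries exceeded all 3 untreated ones. The log2 changes were 1.20 and 1.47 (IL-4, 2 h and 4 h), 0.86 and 1.77 (IFN-γ) and 1.32 and 1.95 (both), with an SE of 0.17 and adjusted p-values of at most 0.00124. Without untreated replicates 2 and 3 the IFN-γ 2 h change was 0.67 (adjusted p = 0.105), and the other 5 were still called.

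The IFN-γ-alone level of Jak2 rose between 2 h and 4 h (0.90, adjusted p = 0.00137), as did the level under both cytokines (0.63, adjusted p = 0.0145). Between IL-4 and IFN-γ the differences were 0.33 at 2 h and -0.30 at 4 h, called with the block alone (adjusted p = 0.0066 and 0.00836, against 0.205 and 0.175); at 4 h it turned to 0.06 on the deposited scale. Both cytokines for 4 h gave 0.48 more than IL-4 alone (adjusted p = 0.0378). That call was lost without IL-4 replicate 2 or 3 (0.0738 and 0.155), without replicate 1 or 2 of the both group (0.166 and 0.0796), without filtering low genes (0.0553) and on the deposited scale (0.474).

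Jak3 (chromosome 8, 71676296 to 71690575, plus strand), the kinase bound to the common γ chain, had 64.9, 48.4 and 62.9 CPM after IFN-γ for 4 h, against 27.3, 20.2 and 23.5 CPM in untreated cells. Both cytokines for 4 h gave 62.0, 52.1 and 54.5 CPM. Neither group overlapped the untreated range, and the rises were 1.27 (adjusted p = 3.72e-05) and 1.22 (4.74e-05) on the log2 scale, with an SE of 0.19. At 2 h Jak3 had 47.5, 29.2 and 37.5 CPM after IFN-γ and 35.9, 30.6 and 44.8 CPM after both, also above all untreated libraries. Those rises were 0.65 (adjusted p = 0.0204) and 0.62 (0.0215). The IFN-γ call was lost without untreated replicate 2 or 3 or without IFN-γ replicate 1 or 3 (0.0563 to 0.118). The call for both was lost without untreated replicate 2 or 3 or without replicate 1 or 3 of the both group (0.0517 to 0.107). Without replicate 3 in all groups the calls for IFN-γ and for both were lost (0.247 and 0.381). Without replicate 1 in all groups the IFN-γ call was lost (0.115). With the block and all libraries, the 2 h rises had adjusted p-values of 0.00028 (IFN-γ) and 0.00034 (both). The 2 h changes without untreated replicates 2 and 3 together were 0.44 and 0.41, and neither was called (adjusted p = 0.394 and 0.4). After IL-4 Jak3 had 24.4 ± 5.05 CPM at 2 h and 19.8 ± 1.48 CPM at 4 h, with changes of 0.04 and -0.24 that were not called; the 4 h change was 0.22 on the deposited scale.

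Tyk2 (chromosome 9, 21104068 to 21131243, minus strand), the kinase bound to IL-13Rα1, had 137, 102 and 144 CPM after IFN-γ for 4 h, against 85.4, 81.6 and 93.2 CPM in untreated cells. Both cytokines for 4 h gave 122, 107 and 132 CPM. The groups did not overlap, and the rises were 0.54 (adjusted p = 0.0149) and 0.46 (0.0298), with an SE of 0.16. The IFN-γ call was lost without IFN-γ replicate 1 or 3 (0.0614 and 0.0704). The call for both was lost without untreated replicate 1 or 2 (0.0676 and 0.086) or without replicate 1 or 3 of the both group (0.0718 and 0.106). Without replicate 1 or 3 in all groups neither call was made (0.221 and 0.0813 for IFN-γ, 0.221 and 0.103 for both). Neither was called without untreated replicates 2 and 3 together (adjusted p = 0.115 and 0.165). With the block and all libraries, the 4 h rises had adjusted p-values of 1.3e-05 (IFN-γ) and 5.8e-05 (both). At 2 h, and after IL-4 at both times, group means ran from 76.6 to 83.4 CPM and no change was called.

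Jak1 (chromosome 4, 101152367 to 101265282, minus strand), the kinase bound to both IL-4Rα and IFNGR1, had the smallest span of the 9. Its group means ran from 278 CPM (IL-4, 4 h) to 399.7 CPM (IFN-γ, 4 h), a span of 0.52 on the log2 scale, and it had 292 ± 59.3 CPM in untreated cells (SD, n = 3). With all libraries and no block it was called in none of the 17 comparisons, although without IFN-γ 4 h replicate 2 it was called lower after IL-4 than after IFN-γ at 4 h (-0.71, adjusted p = 0.0385). In the fit of all libraries the 95% intervals against untreated cells lay between -0.60 and 0.96. With the block the IFN-γ changes of 0.20 and 0.43 and those for both cytokines of 0.21 and 0.24 were called (adjusted p = 0.0213, 2.03e-05, 0.0129 and 0.00372, against 0.734, 0.194, 0.658 and 0.481 without it). Without untreated replicates 2 and 3 the changes were -0.10 (IFN-γ, 2 h), -0.08 (both, 2 h) and -0.06 (both, 4 h). Replicate 1 of Jak1 lay above its group's mean in 7 of 7 groups, and replicate 2 below it in 7 of 7.

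Exons of other annotated genes overlap some of the 9: 728 exonic bases of Il2rg are shared with Gm20489, 571 of Il4ra with Gm44876, 554 of Tyk2 with 1700084C06Rik, 404 of Jak3 with Insl3 and 4 of Jak1 with overlapping genes. The strand used in counting is not given in the sources used here, so reads in those bases cannot be assigned to one gene with certainty.

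Between 2 h and 4 h, 6 of the 9 genes rose under IFN-γ alone (17.7% of all tested genes called), which were Il13ra1, Il2rg, Ifngr2, Jak2, Jak3 and Tyk2, by 0.63 to 1.20 on the log2 scale. Under both cytokines 5 were called (18.3%): Il2rg, Jak2, Jak3 and Tyk2 rose by 0.60 to 0.80 and Ifngr1 fell (-1.02, adjusted p = 0.0477). Under IL-4 alone limma called 0 of the 9 (2.81%), of which 1 (Il13ra1) had an unadjusted p under 0.05; edgeR on recovered reads also called 0, and with the block 3 were called (19.8%): Il13ra1 (-0.66, adjusted p = 0.000977), Ifngr1 (-0.56, 0.000122) and Jak2 (0.27, 0.0428). With the block, 8 genes were called under IFN-γ (45.2%) and 6 under both (46.9%); those added were Il4ra (-0.59, adjusted p = 0.0115, against 0.124 without the block) and Jak1 (0.23, 0.0086 against 0.614) under IFN-γ and Ifngr2 (0.78, 3.12e-07 against 0.0508) under both. On the deposited scale the IFN-γ count was 1 (Il2rg) and the count for both was 0. These comparisons share no untreated libraries.

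Ratios between chains of one library do not depend on its scaling, and those of 6 pairs were compared per kilobase with untreated cells. The 36 comparisons were tested by exact two-sided permutation, for which 3 libraries against 3 cannot give less than p = 0.1 (adjusted p = 0.15). Ifngr2 to Ifngr1 had a ratio of 2.55 ± 0.32 after both cytokines for 4 h, against 0.625 ± 0.061 in untreated cells (SD, n = 3 each). It was 1.21 ± 0.064 after IL-4 for 4 h and 1.13 ± 0.15 after IFN-γ for 4 h, and 0.532 ± 0.016 after IFN-γ for 2 h. None of these groups overlapped the untreated libraries. Jak2 to Jak1 had a ratio of 0.770 ± 0.163 after both cytokines for 4 h, against 0.230 ± 0.037 in untreated cells, and all 6 treatments lay above the untreated range.

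Il4ra to Il2rg, the chains of the type I receptor, had a ratio of 1.46 ± 0.18 after IFN-γ for 4 h and of 3.98 to 6.40 on average in the other treated groups, against 0.985 ± 0.170 in untreated cells. Il13ra1 to Il2rg, the 2 alternative partners of IL-4Rα, had a ratio of 0.0937 ± 0.013 after IL-4 for 4 h and of 0.338 ± 0.051 after IFN-γ for 2 h, against 0.197 ± 0.033 in untreated cells. Both groups stood clear of the untreated range, on opposite sides. After both cytokines for 4 h the ratio was 0.111 ± 0.016, also clear below the untreated range. After IFN-γ for 4 h it was 0.243 ± 0.021, which overlapped that range. Jak3 to Jak1 had a ratio of 0.225 ± 0.036 after both for 4 h and 0.205 ± 0.034 after IFN-γ for 4 h, against 0.110 ± 0.0058 in untreated cells, without overlap. Tyk2 to Jak1 overlapped the untreated range in each treated group. Set against the untreated library of the same number, however, its log2 ratio was lower in all 3 pairs after IL-4 for 2 h (-0.41 to -0.03), IFN-γ for 2 h (-0.53 to -0.15) and both for 2 h (-0.52 to -0.22). It was higher in all 3 pairs after IFN-γ for 4 h (0.03 to 0.20) and both for 4 h (0.18 to 0.31). After IL-4 for 4 h it was mixed. Among other ratios overlapping the untreated range, Il13ra1 to Il2rg was lower in all 3 pairs after IL-4 for 2 h (-0.80 to -0.27). Ifngr2 to Ifngr1 was higher in all 3 after both for 2 h (0.14 to 0.33), and the rest were mixed. All these pairs share the same 3 untreated libraries.

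**Figure D3:**
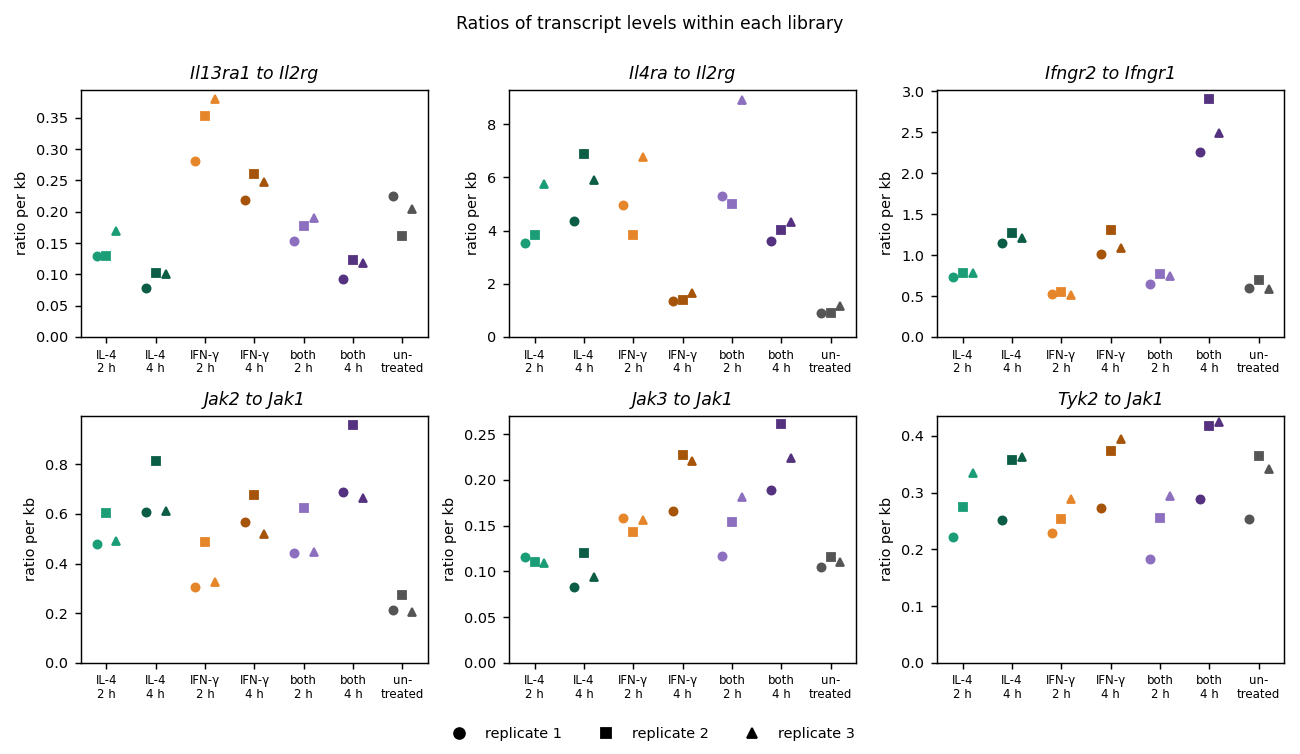
Ratios of levels per kilobase within each library for 6 pairs of genes, on axes that start at 0. Symbols are replicates, and groups run from IL-4 on the left to untreated on the right. The 3 libraries with both cytokines for 4 h have the highest Ifngr2 to Ifngr1 ratios, averaging 2.55, against 0.625 in untreated cells.

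Other genes of the 2 pathways were read from lists. Of 14 tested signalling genes downstream of the receptors, 1 rose after IL-4 for 2 h (5.51% of all tested genes rose), Pik3r1, a regulatory subunit of phosphoinositide 3-kinase, at 193 ± 17.2 CPM against 134 ± 14.2 CPM in untreated cells. After IL-4 for 4 h 1 fell (10.1% fell), Stat6, with 187 ± 23.1 CPM against 242 ± 8.10 CPM in untreated cells (-0.38, adjusted p = 0.0373), a change that was 0.10 on the deposited scale. With the block, 5 of the 14 were called at each of these times (25.5% and 47.5% of all tested genes called). IFN-γ raised 6 at 2 h (10.8% rose) and 6 at 4 h (21.3%). Both cytokines raised 8 and lowered 1 at 2 h (12.8% and 9.38%), and raised 5 and lowered 2 at 4 h (22.8% and 19.8%). Stat3 rose after IFN-γ by 1.40 at 2 h and 1.85 at 4 h on the log2 scale, and Stat2 rose after both by 1.28 and 1.75. Without untreated replicates 2 and 3, 4 of the 14 were called after both for 2 h.

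Of 20 inhibitors of cytokine signalling, 5 rose after IL-4 for 2 h (5.51% of all tested genes rose), and 5 rose and 3 fell after IL-4 for 4 h (12% rose and 10.1% fell). After IFN-γ 7 rose and 2 fell at 2 h (10.8% and 7.1%), and 8 rose and 2 fell at 4 h (21.3% and 17.8%). Both cytokines raised 8 and lowered 3 at 2 h (12.8% and 9.38%), and raised 9 and lowered 3 at 4 h (22.8% and 19.8%). Socs1, which blocks JAK activity, had 257 ± 48.4 CPM after both for 4 h and 114 ± 13.9 CPM after IFN-γ for 4 h, against 0.884 ± 0.398 CPM in untreated cells. Cish, a target of STAT5 and STAT6 signalling, rose to 67.5 ± 7.52 CPM after IL-4 for 4 h and 139 ± 22.2 CPM after both for 4 h, against 0.720 ± 0.262 CPM in untreated cells. Each rose under all 6 treatments, Socs1 by 5.51 and 4.89 on the log2 scale after IL-4 for 2 h and 4 h, and Cish by 4.20 and 3.98 after IFN-γ. Socs2 rose after IL-4 for 4 h (4.94 on the log2 scale), and Socs3 after IFN-γ at 2 h and 4 h (4.74 and 5.06). With the block 9 inhibitors were called after IL-4 for 2 h (25.5% of all tested genes called) and 16 after IFN-γ for 2 h (38.1%).

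Of 38 listed chains of other cytokine receptors, 23 were tested. IL-4 raised 1 and lowered 1 at 2 h (5.51% of all tested genes rose and 3.11% fell), and raised 2 and lowered 3 at 4 h (12% and 10.1%). IFN-γ raised 6 and lowered 3 at 2 h (10.8% and 7.1%), and raised 12 and lowered 4 at 4 h (21.3% and 17.8%). Both cytokines raised 6 and lowered 3 at 2 h (12.8% and 9.38%), and raised 13 and lowered 6 at 4 h (22.8% and 19.8%). Il6st, the signal-transducing chain of the IL-6 family, rose after IL-4 for 2 h (347 ± 40.6 CPM, against 191 ± 15.1 CPM in untreated cells). Il7r and Il21r, whose proteins pair with the common γ chain, fell after IL-4 for 4 h (-1.80 and -1.15), and Il21r also fell at 2 h (-0.85); neither Il21r fall was called on the deposited scale (adjusted p = 0.0636 at 4 h and 0.249 at 2 h). Il15ra, the IL-15 receptor's private chain, rose after IFN-γ for 4 h to 39.8 ± 2.51 CPM, against 3.85 ± 0.416 CPM in untreated cells. Csf2rb, the shared chain of the GM-CSF receptor, rose after IFN-γ for 2 h (1.79) and after both for 2 h (1.76). Il12rb1 and Il12rb2, the chains of the IL-12 receptor, whose kinases are TYK2 and JAK2, rose after both for 4 h by 4.37 and 2.69. After IFN-γ alone for 4 h they rose by 4.96 and 2.63. With the block 6, 8, 15 and 16 of the 23 were called after IL-4 for 2 h (25.5% of all tested genes called), IL-4 for 4 h (47.5%), IFN-γ for 2 h (38.1%) and both for 2 h (43.4%). The median log2 changes of the 3 lists against untreated cells ran from -0.19 to 0.57.

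The genes whose log2 levels followed each of the 9 most closely over the 21 libraries were taken for the 7 genes whose group means spanned at least 1 log2 unit. The libraries share 7 treatments and 3 replicate numbers, so these correlations describe a shared pattern over groups. Il4ra was followed by Zbtb5 (Pearson r = 0.96), Usp36 (0.94) and Bmp2k (0.93). Il13ra1 was followed by Peli1 (0.98), Atxn7l1 (0.96) and Sowahc (0.96), and Il2rg by Cfb (0.99), C4b (0.98) and Pphln1 (0.98). Ifngr1 was followed by Nlrc4 (0.96), Cd300a (0.96) and Zscan21 (0.94), and Ifngr2 by Surf6 (0.93), Zfp36l1 (0.93) and Prkcd (0.92). Jak2 was followed by Cdca4 (0.95), Clic4 (0.94) and Wdr43 (0.93), and Jak3 by Lrch1 (0.97), Sik3 (0.96) and Zyx (0.96). Among the 9 themselves, the highest correlation over libraries was that of Il2rg with Jak3 (r = 0.90), the γ chain and its kinase, followed by Il13ra1 with Il2rg (0.82) and with Jak3 (0.79). Ifngr1 was negatively correlated with Jak2 (-0.54).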

How the data were processed

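The 9 genes, the gene lists and the tests were chosen with earlier results of these data known. CPM values per gene, reads scaled to a common library total, were deposited by the authors for 21 libraries made with the TruSeq RNA kit from poly(A) RNA, per the labels' protocols; TopHat2 2.1.0, HTSeq, edgeR and the builds mm10 and GRCm38 are named in the submitters' processing notes. All CPM (100%) were whole multiples of 1 read within 0.01 read, which gave back the reads per library. CPM were divided by median-ratio factors over the 13025 genes read in every library. limma (3.58.1, R 4.3.3, trend) was fitted to log2(rescaled CPM + 1), so fold changes of low genes are understated, over 11380 genes with at least 1 deposited CPM in at least 3 libraries, with group means only (14 residual degrees of freedom). Benjamini-Hochberg adjustment was made within each of 17 comparisons, and calls were made at adjusted p under 0.05. The fit was also run on simulated reads with known changes. Those reads were drawn independently for each library, so that run cannot show how deviations shared by replicate number affect the calls. The 21 libraries have 3 replicate numbers: 63 pairs with the same number had correlated deviations from their group means (r 0.54 to 0.95), and 126 pairs with different numbers had r of -0.86 to 0.37, so a fit with the number as a block (12 residual degrees of freedom) is also given. edgeR 4.0.16's quasi-likelihood test on the recovered reads called 33 to 4891 genes per comparison. Other alternatives were deposited CPM, TMM factors, a pseudocount of 0.1, no filter, and leaving out libraries. Named pathway genes are the 2 called genes with the largest change per list and comparison with untreated cells; some of these are not reported here. Exon lengths and positions came from GENCODE for GRCm38. Depth sets the precision of counting: the fewest reads of any of the 9 in any library were 337.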

Additional observations from a re-analysis of the deposited data

Results flagged for a closer look

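Between 2 h and 4 h of IFN-γ, the change against untreated cells differed for 6 of the 9 genes by a test of the difference itself: Il13ra1 (0.73 on the log2 scale, adjusted p = 0.0112), Il2rg (1.20, 0.00355), Ifngr2 (1.00, 0.0147), Jak2 (0.90, 0.00137), Jak3 (0.63, 0.027) and Tyk2 (0.64, 0.0111). The values are given for limma over all tested genes, positive where the 4 h level was higher. All but those of Il2rg and Jak2 were lost without one or more single libraries: Il13ra1 without IFN-γ 4 h replicate 1 (0.0748), Ifngr2 without IFN-γ 2 h replicate 2 or 4 h replicate 1 or 3 (0.0631 to 0.0776), Jak3 without IFN-γ 2 h replicate 2 or 3 or 4 h replicate 1 or 3 (0.0701 to 0.126), and Tyk2 without IFN-γ 2 h replicate 2 or 4 h replicate 1 or 3 (0.054 to 0.06). The Il2rg call was lost without replicate 3 in all groups (0.118).

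Between 2 h and 4 h of both cytokines the change differed for 5 genes: Il2rg (0.80, adjusted p = 0.0366), Ifngr1 (-1.02, 0.0477), Jak2 (0.63, 0.0145), Jak3 (0.60, 0.0327) and Tyk2 (0.65, 0.0097). The Tyk2 call held without each single library but was lost without replicate 1 or 3 in all groups (0.186 and 0.0515). That of Il2rg was lost without replicate 2 or 3 at 2 h or replicate 1 at 4 h (0.0965 to 0.165), that of Jak2 without replicate 3 at 2 h or replicate 1 at 4 h (0.0663 and 0.0755), that of Jak3 without replicate 1 or 2 at 2 h or replicate 1 or 3 at 4 h (0.0665 to 0.125), and that of Ifngr1 without replicate 1 or 3 at 2 h or replicate 2 or 3 at 4 h (0.0811 to 0.185).

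The response to both cytokines fell below the sum of the single responses for Il4ra at 2 h (-1.92) and for Jak2 at 4 h (-1.28), each by a test of that difference.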

How the results depend on the processing

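The 102 changes of the 9 genes called with or without the replicate block kept their direction and their calls with TMM factors, a pseudocount of 0.1 and edgeR on recovered reads, except that TMM added 2 calls and edgeR 3. Of the other 51 changes, called in neither fit, 17 turned sign as deposited. Among the 102, set against the fit without the block, the deposited scale lost 19 calls, added 4 and turned 1 direction. With no filter 5 calls were lost. Leaving out replicate 1 in all groups lost 23 calls and added 3. Leaving out replicate 2 lost 4 and added 18, and leaving out replicate 3 lost 29. With the replicate block, which changes no estimate, 43 further calls were made and none was lost. Member counts with the block were 4, 5, 8 and 7 against untreated cells (IL-4 2 h, IL-4 4 h, IFN-γ 2 h, both 2 h), 3 and 6 for both against IFN-γ, 7 for both against IL-4 at 2 h, 8 at each time for IL-4 against IFN-γ, 3 for IL-4 over time and 2 at each time for the departure from the sum. On the deposited scale, counts were 1 and 4 for both against IL-4, 2 for IL-4 against IFN-γ at 2 h, 1 for IFN-γ over time, 0 for both over time and 2 for the departure at 4 h (2 with edgeR also). With no filter they were 3 for both over time and 0 for the departure at 2 h. For the pathway lists, deposited CPM gave 4 and 4 downstream genes and the block 5 and 5 after IL-4; the block gave 9 and 16 inhibitors (IL-4 and IFN-γ, 2 h) and 6, 8, 15 and 16 other receptors, with 8 also as deposited after IL-4 for 4 h. Deposited means were 1011 and 1289 CPM (IL-4, 2 h and 4 h) against 189 CPM untreated for Il4ra, 20.7 and 13.1 CPM (IL-4) for Il13ra1, 119 and 149 CPM (IL-4) against 39.8 CPM untreated for Jak2, 23.0 CPM (IL-4, 4 h) for Jak3 and 96.5 CPM (IL-4, 4 h) against 74.8 CPM untreated for Tyk2. Directions turned as deposited for Jak2 between IL-4 and IFN-γ at 4 h (0.065), without untreated replicates 2 and 3 for Jak1 (IFN-γ 2 h: -0.095, both 2 h: -0.083, both 4 h: -0.058) and Il13ra1 (both, 4 h: -0.036), and for Jak1 between both and IFN-γ at 4 h, which ran from -0.41 to 0.032 over the libraries left out, the last without IFN-γ 4 h replicate 1. Log2 ratios ran from -0.33 to 0.013 for Il13ra1 to Il2rg (both, 2 h), -0.051 to 0.059 for Jak3 to Jak1 (IL-4, 2 h) and -0.025 to 0.034 for Tyk2 to Jak1 (IL-4, 4 h) with a replicate left out. With a replicate or library left out, member counts against untreated cells ran from 3 to 5 (IL-4, 4 h), 3 to 6 (IFN-γ, 2 h) and 2 to 5 (both, 2 h); for both against IFN-γ from 0 to 2 and 1 to 3, for both against IL-4 from 0 to 5 and 3 to 6, for IL-4 against IFN-γ at 2 h from 1 to 5, over time from 0 to 1 (IL-4), 1 to 7 (IFN-γ) and 0 to 5 (both), and for the departure from 0 to 1 and 0 to 2. Downstream counts ran from 0 to 1 and 0 to 3 (IL-4), 3 to 8 (IFN-γ, 2 h) and 2 to 9 (both, 2 h), inhibitors from 5 to 10 (IL-4, 4 h), 4 to 12 (IFN-γ, 2 h) and 6 to 12 (both, 2 h), and other receptors from 1 to 5 and 2 to 7 (IL-4), 4 to 11 and 9 to 15 (IFN-γ) and 4 to 10 and 10 to 16 (both). Low counts were reached without replicate 1 or 3 in all groups, a setting that also leaves fewer samples, but not there alone. The IL-4 count over time was 0 with all libraries. The 1 departure call at 2 h was also lost without single libraries. Without untreated replicates 2 and 3, member counts were 3 after IFN-γ for 2 h and 0 for the departure at each time; downstream genes were 0, 0 and 4 (IL-4 2 h and 4 h, both 2 h), inhibitors 7 (both, 2 h) and other receptors 0 and 5 (IL-4 and both, 2 h). Over all genes, deposited CPM gave 1903 and 4170 calls after IL-4 for 2 h and 4 h (981 and 2515 rescaled) and 2883 after IFN-γ for 4 h (4456 rescaled), and higher genes were 96.3%, 93.0%, 89.7%, 69.9%, 87.0% and 73.7% of the calls in the 6 comparisons with untreated cells, in the order of the report, against 63.9%, 54.3%, 60.3%, 54.5%, 57.7% and 53.4% rescaled. In the other comparisons that moved by over 1.5 times, deposited CPM gave 189 and 698 calls (both against IFN-γ; 342 and 1351 rescaled), 941 (both against IL-4, 2 h; 1686), 1430 (IL-4 against IFN-γ, 2 h; 2205), and over time 75 (IL-4; 320), 915 (IFN-γ; 2009) and 963 (both; 2083). The causes were not tested.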
